A study of Mus musculus with 15 samples.

Results

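Of the 55385 genes of the count table, 10 were followed across every group of the experiment because they make or sense prostaglandins and leukotrienes. They were picked by gene name, with earlier results of these data known, and are Pla2g4a, Ptgs1, Ptgs2, Ptges, Ptger2, Ptger4, Alox5, Alox5ap, Lta4h and Ltc4s. All 10 were found by symbol, and all 10 passed the filter that kept 13005 genes for testing (CPM, counts scaled to a common library size, over 1 in at least 2 libraries).

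RNA-seq was done on bone marrow-derived macrophages (BMDMs) from BALB/c mice labelled as 6 wk old. STAT5fl/fl BMDMs carry floxed Stat5 alleles, and STAT5cKO BMDMs come from a cross of that line with Csf1r-iCre mice, in which the Csf1r promoter drives Cre. This promoter is also active in other myeloid cells and in some splenic lymphocytes, and whether the STAT5fl/fl mice carried Cre is not given in the sources used here. Both genotypes were kept for 2 h in serum-free DMEM, in 20 ng/mL recombinant mouse GM-CSF (rmGM-CSF), or in 4T1 CM. The last is the medium conditioned by serum-starved 4T1 mouse mammary tumor cells. The paper found GM-CSF in it by ELISA, and neutralizing that GM-CSF lowered STAT5 phosphorylation in BMDMs. So rmGM-CSF and 4T1 CM are not separate stimuli in this respect. Each medium had 2 STAT5fl/fl libraries (numbered 112 and 113, the third having been removed at quality control) and 3 STAT5cKO libraries (114, 115 and 116), which gives 15 libraries in 6 groups. The study's methods call these biological replicates, and the labels do not say whether a number marks 1 mouse or 1 culture.

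Eicosanoids are lipid mediators made from arachidonic acid. The cytosolic phospholipase A2 encoded by Pla2g4a frees arachidonate from membranes. In one branch the cyclooxygenases encoded by Ptgs1 (COX-1, usually constitutive) and Ptgs2 (COX-2, an inducible early gene in stimulated macrophages) make prostaglandin H2, which the synthase encoded by Ptges turns into prostaglandin E2 (PGE2). Ptger2 and Ptger4 encode EP2 and EP4, the PGE2 receptors that raise cyclic AMP. In the other branch 5-lipoxygenase (Alox5) and its activating protein (Alox5ap) make leukotriene A4, from which Lta4h makes leukotriene B4 and Ltc4s makes leukotriene C4. Messenger RNA was measured here, and no lipid was.

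Library totals ran from 16016736 to 22883108 counts. Stat5a had between 637 and 918 counts in each STAT5fl/fl library and at most 3 in each STAT5cKO library, and Stat5b had between 977 and 1654 against at most 4, so the labels and the targeted genes match. All 8 macrophage markers passed the filter, and Csf1r had a mean of 3972 to 4135 CPM in every group. The summed level of these 8 markers was 24630 to 29830 CPM in STAT5fl/fl libraries and 31110 to 46590 CPM in STAT5cKO libraries. Most of that difference was Lyz2 (lysozyme 2), whose group means were 17040 to 19230 against 26310 to 29180 CPM, and the part of this shift in the genotype results was not tested. In RNA from a culture, fewer cells of a type and less RNA per cell cannot be told apart.

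Per transcript length, averaged over the 15 libraries, Alox5ap had the highest level of the 10 genes, at 117 RPKM (CPM per kilobase of transcript), above 97.5% of tested genes. Ptgs1 followed at 28.9 RPKM, Ptger4 at 17.1, Lta4h at 9.13, Ltc4s at 5.12, Ptgs2 at 4.72, Alox5 at 3.72, Pla2g4a at 2.84, Ptger2 at 2.25 and Ptges at 1.002 RPKM. The highest library exceeded the lowest by the largest ratio in Ptgs2, which ran from 0.248 to 11.3 RPKM between libraries.

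**Figure D1:**
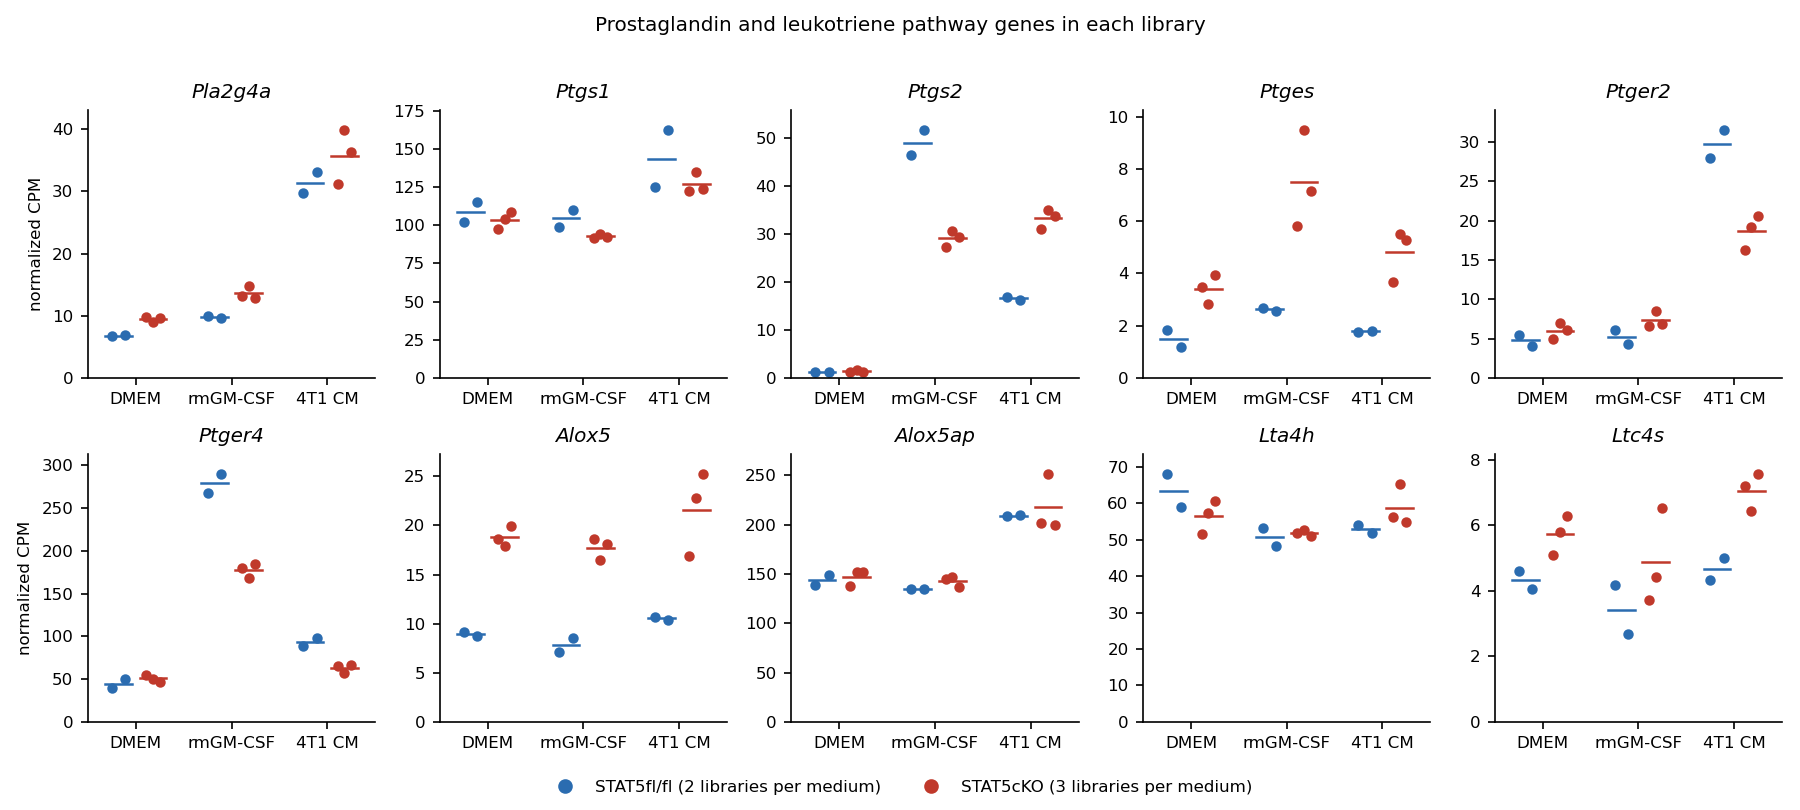
Normalized CPM (vertical axes, linear and starting at 0) of the 10 genes in each library, by medium; each point is 1 library and each bar a group mean. Ptgs2 lies at 1.14 to 1.70 CPM in all DMEM libraries, is higher in STAT5fl/fl than in STAT5cKO libraries with rmGM-CSF and lower with 4T1 CM, while Alox5 is higher in STAT5cKO libraries in every medium.

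Ptgs2 was the member that changed most, and the genotype difference in it had opposite directions in the 2 stimuli. The gene (ENSMUSG00000032487) lies on the plus strand at chr1:150100031-150108227 of GRCm38. With DMEM it had 1.14 and 1.22 CPM in STAT5fl/fl libraries and 1.19, 1.70 and 1.28 CPM in STAT5cKO libraries, which correspond to 25 to 39 counts and overlap. With rmGM-CSF it had 46.3 and 51.6 CPM in STAT5fl/fl and 27.3, 30.5 and 29.2 CPM in STAT5cKO libraries. With 4T1 CM it had 16.8 and 16.3 CPM in STAT5fl/fl and 30.9, 35.0 and 33.7 CPM in STAT5cKO libraries. So STAT5fl/fl BMDMs held the highest levels with rmGM-CSF and the lowest stimulated levels with 4T1 CM, whereas the 6 stimulated STAT5cKO libraries lay between 27.3 and 35.0 CPM.

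In STAT5fl/fl BMDMs, Ptgs2 rose 41.3-fold with rmGM-CSF (log2 fold change 5.37, SE 0.14, edgeR adjusted p = 1.98e-14) and 13.9-fold with 4T1 CM (3.80, SE 0.15, 2.19e-12). STAT5cKO BMDMs raised it 20.8-fold with rmGM-CSF (4.38, SE 0.12, 1.67e-14) and 23.8-fold with 4T1 CM (4.57, SE 0.11, 3.84e-15). By log2 fold change over DMEM it ranked 36th of 13005 tested genes with rmGM-CSF in STAT5fl/fl and 15th in STAT5cKO, and 118th and 53rd with 4T1 CM. The 2 stimuli differed in STAT5fl/fl BMDMs, with Ptgs2 2.96-fold lower in 4T1 CM than in rmGM-CSF (edgeR adjusted p = 1.88e-09). In STAT5cKO BMDMs that difference did not pass the test (log2 fold change 0.19, 95% interval 0.02 to 0.36, edgeR adjusted p = 0.0585).

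Between genotypes, Ptgs2 was 1.69-fold lower in STAT5cKO BMDMs with rmGM-CSF (log2 fold change -0.75, SE 0.09, edgeR adjusted p = 8.60e-06) and 2.01-fold higher with 4T1 CM (1.004, SE 0.10, 2.37e-06). With DMEM the log2 difference was 0.23 (95% interval -0.19 to 0.66, edgeR adjusted p = 0.620). The test of the difference between the 2 genotype effects gave 1.76 on the log2 scale (SE 0.13, edgeR adjusted p = 4.03e-07), the 6th smallest p of 13005 genes. Of those genes, 11 were called lower in STAT5cKO with rmGM-CSF and higher with 4T1 CM, Ptgs2 among them, and 1 was called in the reverse pattern. Ptgs2 had the largest change with 4T1 CM of those 11, which also held Nfil3 (-1.83 and 0.47 on the log2 scale), Bcl3 (-0.47 and 0.45) and Cass4 (-1.51 and 0.99), named here after their values were seen. The Ptgs2 calls between genotypes with each stimulus, and the call of the difference between them, held in every alternative run. For 4T1 CM against DMEM the difference between genotypes was 0.77 and did not pass (95% interval 0.29 to 1.25, edgeR adjusted p = 0.0856). For rmGM-CSF against DMEM it was -0.99 (edgeR adjusted p = 0.00982). That call was lost without 112 (-1.02), 113 (-0.96), 114 (-1.04, edgeR adjusted p = 0.0173), 115 (-0.86, 0.0593) or 116 (-1.05, 0.0350). It was also lost with the edgeR default filter (edgeR adjusted p = 0.0109) or the compared groups only (0.0149). DESeq2 gave an adjusted p of 0.0112, and limma with the library number as a random effect 0.0705.

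The bases just before the start site of Ptgs2 are shown because this is the gene whose genotype effect changed sign between stimuli. They lie at chr1:150099781-150100030, plus strand, in the C57BL/6J reference GRCm38.p6 (RefSeq), and the mice were BALB/c. Capitals mark the letters TTGCGCAA at positions -69 to -62 from the start site, a match to the C/EBP motif TTGCNNAA.

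Ptgs2: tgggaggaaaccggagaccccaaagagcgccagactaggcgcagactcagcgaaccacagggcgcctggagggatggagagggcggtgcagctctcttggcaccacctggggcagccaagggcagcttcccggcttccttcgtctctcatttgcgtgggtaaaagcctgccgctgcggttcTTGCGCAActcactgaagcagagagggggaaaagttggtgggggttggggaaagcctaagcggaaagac

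A window of 300 bases (250 before the start site and 50 from it) was searched on both strands for 5 motifs, in the 9 members that have a promoter entry. TTGCNNAA is present in 10.8% of all 32851 such windows. Past the start site the Ptgs2 window also holds a CRE half-site (TGACG, found on the opposite strand) at 14 to 18, and an E-box (CACGTG) at 17 to 22, which overlap. Those letters occur in 20.8% and 7.15% of windows. Ptger2 was the only other member with a match, TTGCTTAA at 40 to 47. Pla2g4a had entries for more than 1 start site, and each was searched. No window of the 9 members held the STAT motif TTCNNNGAA (8.30% of all windows) or the NF-kB motif (4.79%). This says only that these letters are not in these windows.

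Ptgs1, the other cyclooxygenase, stayed within a narrow range. It lies at chr2:36230426-36252272 on the plus strand, and its 15 values ran from 91.7 to 162 CPM. With 4T1 CM it was 1.32-fold higher than with DMEM in STAT5fl/fl BMDMs (edgeR adjusted p = 0.00293) and 1.23-fold higher in STAT5cKO BMDMs (edgeR adjusted p = 0.00616). The first of these calls was lost without replicate 113 (log2 fold change 0.29) and when only the compared groups were fitted (0.40, edgeR adjusted p = 0.0179). The second was lost without 114 (edgeR adjusted p = 0.0429), 115 (0.0701) or 116 (0.0166). No genotype comparison of Ptgs1 passed the test, with log2 differences of -0.07 in DMEM, -0.17 under rmGM-CSF and -0.18 under 4T1 CM. Per transcript length, Ptgs1 exceeded Ptgs2 in all 15 libraries. Ptgs2 stood at 0.902 to 1.38 per 100 of Ptgs1 RPKM with DMEM. It reached 39.7 in both STAT5fl/fl libraries and 25.2 to 27.5 in STAT5cKO libraries with rmGM-CSF, and 8.49 and 11.4 against 21.4 to 23.02 with 4T1 CM.

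**Figure D2:**
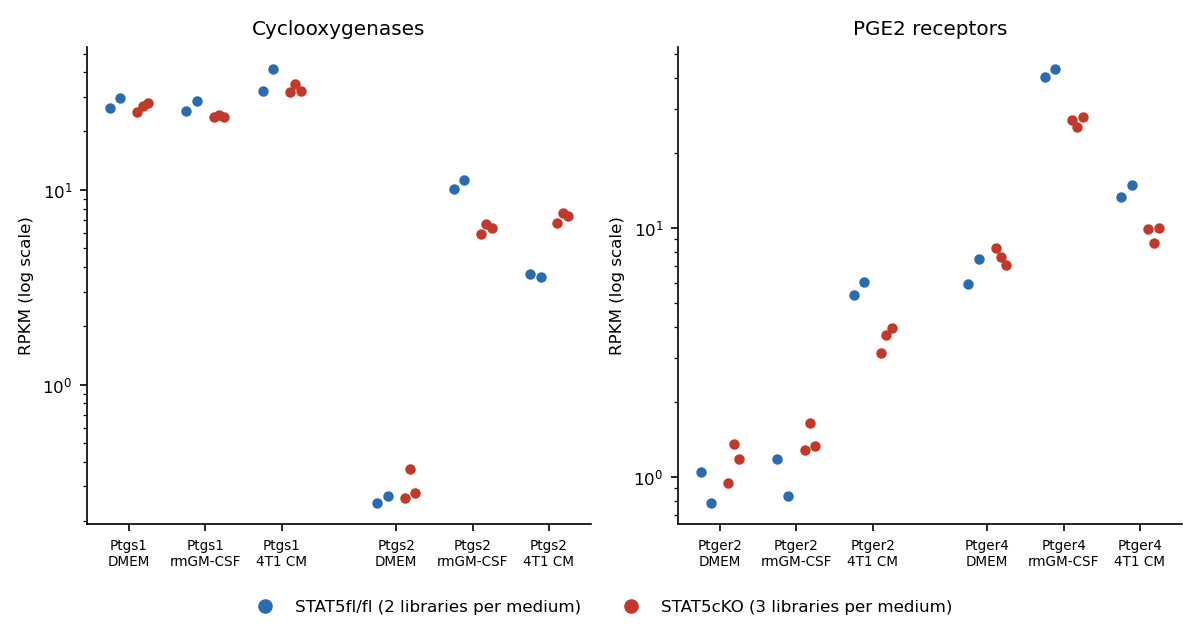
Level per transcript length (RPKM, log axis) of the cyclooxygenase genes Ptgs1 and Ptgs2 (left) and the PGE2 receptor genes Ptger2 and Ptger4 (right); each point is 1 library, by medium and genotype. Ptgs1 stays above Ptgs2 in every library, and Ptger4 stays above Ptger2 by a margin that is widest with rmGM-CSF.

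Ptges, the inducible PGE2 synthase gene, was higher in STAT5cKO BMDMs. The gene lies at chr2:30889471-30929863 on the minus strand. With DMEM it had 1.82 and 1.18 CPM in STAT5fl/fl and 3.49, 2.83 and 3.95 CPM in STAT5cKO libraries. With rmGM-CSF the values were 2.68 and 2.57 against 5.83, 9.49 and 7.15 CPM, and with 4T1 CM 1.75 and 1.80 against 3.69, 5.52 and 5.30 CPM. The genotypes did not overlap in any medium, and the counts behind these values were low, from 28 to 48 in STAT5fl/fl libraries. The summed level of 5 fibroblast markers moved the same way, at 0.500 to 0.885 CPM in STAT5fl/fl and 1.70 to 2.76 CPM in STAT5cKO libraries with DMEM, 0.375 to 0.685 against 2.32 to 3.70 CPM with rmGM-CSF, and 0.584 to 0.877 against 0.897 to 4.62 CPM with 4T1 CM. Of these markers Col1a1 alone passed the filter, with 3 to 12 counts in STAT5fl/fl and 9 to 74 in STAT5cKO libraries. No STAT5fl/fl library exceeded 1 CPM of it, so it passed through STAT5cKO libraries and its genotype tests add nothing to these values. Col1a1 gave no call between genotypes (edgeR adjusted p = 0.105, 0.0211 and 0.0432). The paper reports higher Col1a1 in stimulated STAT5cKO BMDMs by qRT-PCR. It also reports more type I collagen in their medium after longer treatment with 4T1 CM. Both were measured in whole cultures, and which cells the Col1a1 counts came from was not tested. The part of the marker shift in the Ptges result was not tested.

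STAT5cKO over STAT5fl/fl, Ptges was 2.86-fold higher with rmGM-CSF (log2 fold change 1.52, SE 0.25, edgeR adjusted p = 0.000337) and 2.72-fold higher with 4T1 CM (1.44, SE 0.27, 0.00132). With DMEM it differed by 1.197 on the log2 scale and did not pass the threshold (95% interval 0.62 to 1.77, edgeR adjusted p = 0.0149). The rmGM-CSF call was lost without replicate 113 (1.49), and the 4T1 CM call without 112 (1.42) or 113 (1.46). Fitting only the compared groups also lost the 4T1 CM call (1.43, edgeR adjusted p = 0.0121). No test of a difference between these genotype effects passed, so a dependence on the medium was not shown. rmGM-CSF raised Ptges 2.19-fold in STAT5cKO BMDMs (edgeR adjusted p = 0.000344), a call lost without replicate 115 (log2 fold change 0.79, adjusted p = 0.0194). In STAT5fl/fl BMDMs the same comparison gave 0.81 (95% interval 0.15 to 1.47, edgeR adjusted p = 0.0485).

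Pla2g4a, at the head of both branches, responded mainly to 4T1 CM. It lies at chr1:149829618-149961290 on the minus strand, 138740 bases from Ptgs2, with 3 other genes of the table wholly between. With DMEM it had 6.78 and 6.83 CPM in STAT5fl/fl and 9.83, 9.004 and 9.67 CPM in STAT5cKO libraries. rmGM-CSF gave 9.96 and 9.65 against 13.2, 14.7 and 12.8 CPM, and 4T1 CM gave 29.7 and 33.1 against 31.1, 39.9 and 36.3 CPM. All 5 libraries with 4T1 CM thus exceeded the other 10.

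Pla2g4a rose 4.62-fold with 4T1 CM in STAT5fl/fl BMDMs (log2 fold change 2.21, SE 0.12, edgeR adjusted p = 1.32e-10) and 3.76-fold in STAT5cKO BMDMs (1.91, SE 0.10, 2.22e-11), and both calls held in every alternative. rmGM-CSF raised it 1.44-fold in STAT5fl/fl (edgeR adjusted p = 0.00442, and 0.0807 and 0.0642 without 112 and 113, or 0.0176 in limma with the library number as a random effect) and 1.43-fold in STAT5cKO (edgeR adjusted p = 0.000662, and 0.0161 without 115). The genotype difference with rmGM-CSF, 1.39-fold higher in STAT5cKO, was close to the threshold (log2 fold change 0.47, SE 0.12, edgeR adjusted p = 0.00881). It was lost when any 1 replicate was left out (0.0596 without 112, 0.112 without 113, 0.0103 without 114, 0.0319 without 115, 0.0220 without 116), and in limma with the library number as a random effect (0.0313). With DMEM a difference of 0.48 had an edgeR adjusted p of 0.0231, and with 4T1 CM one of 0.19 had 0.230.

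The PGE2 receptor genes responded to different stimuli, Ptger4 most to rmGM-CSF and Ptger2 to 4T1 CM. Ptger4 lies at chr15:5206661-5244187 on the minus strand, and some of its exons overlap Ttc33 and Gm15937 on the plus strand, from which strand-aware counting separates it. With DMEM it had 39.4 and 49.97 CPM in STAT5fl/fl and 55.2, 50.7 and 46.9 CPM in STAT5cKO libraries. rmGM-CSF gave 268 and 289 CPM in STAT5fl/fl against 180, 168 and 184 CPM in STAT5cKO libraries. 4T1 CM gave 88.5 and 98.4 CPM against 65.7, 57.7 and 66.0 CPM. Genotypes overlapped with DMEM, and STAT5cKO lay below STAT5fl/fl with both stimuli.

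Ptger4 rose 6.23-fold with rmGM-CSF in STAT5fl/fl BMDMs (log2 fold change 2.64, SE 0.11, edgeR adjusted p = 3.69e-12) and 3.49-fold in STAT5cKO BMDMs (1.80, SE 0.09, 3.62e-11). With 4T1 CM it rose 2.09-fold in STAT5fl/fl (1.06, SE 0.11, edgeR adjusted p = 2.58e-07) and 1.24-fold in STAT5cKO (0.31, SE 0.09, 0.00653). The last of these calls was lost without 114 (edgeR adjusted p = 0.0194), 115 (0.0118) or 116 (0.111), and with the compared groups only (0.0105). STAT5cKO was 1.57-fold lower with rmGM-CSF (log2 fold change -0.65, SE 0.09, edgeR adjusted p = 6.02e-05) and 1.48-fold lower with 4T1 CM (-0.57, SE 0.09, 0.000579), against 0.19 with DMEM (95% interval -0.02 to 0.39, adjusted p = 0.289). The rmGM-CSF call held in every alternative, and the 4T1 CM call was lost without 113 (-0.49, adjusted p = 0.0113). Both stimuli passed the test of a difference in response between genotypes, at -0.84 for rmGM-CSF (SE 0.13, edgeR adjusted p = 0.000744) and -0.75 for 4T1 CM (SE 0.14, 0.00457). The first was lost without 112 (-0.73). The second was lost without 112 (-0.67), 113 (-0.86), 114 (-0.72, edgeR adjusted p = 0.0240) or 115 (-0.69, 0.0272). It was also lost when only the compared groups were fitted (-0.75, edgeR adjusted p = 0.0227). The genotype effects with the 2 stimuli were not told apart (0.09, 95% interval -0.19 to 0.36).

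The stretch before the Ptger4 start site, chr15:5244188-5244437 on the minus strand of GRCm38.p6 (RefSeq), is given beside that of Ptgs2 because these were the members called in the tests of differing response. It held none of the 5 motifs, so it has no capitals.

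Ptger4: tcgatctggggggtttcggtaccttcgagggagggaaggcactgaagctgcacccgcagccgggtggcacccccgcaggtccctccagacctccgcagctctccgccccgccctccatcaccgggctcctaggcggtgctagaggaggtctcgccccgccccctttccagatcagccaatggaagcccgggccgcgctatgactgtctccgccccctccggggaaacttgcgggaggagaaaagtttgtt

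Ptger2 lies at chr14:44988195-45003820 on the plus strand and overlaps exons of Gm49364 and Gm17173 on the minus strand. With DMEM it had 5.41 and 4.09 CPM in STAT5fl/fl and 4.92, 7.003 and 6.09 CPM in STAT5cKO libraries. rmGM-CSF left it in the same range, with 6.10 and 4.34 against 6.62, 8.56 and 6.89 CPM. With 4T1 CM it had 28.0 and 31.5 CPM in STAT5fl/fl and 16.3, 19.2 and 20.6 CPM in STAT5cKO libraries. Only with 4T1 CM, then, were STAT5cKO libraries all below STAT5fl/fl libraries, and with rmGM-CSF they were all above. The rmGM-CSF difference, 0.51 on the log2 scale, was opposite in sign to that with 4T1 CM. It was not called (95% interval 0.10 to 0.92, edgeR adjusted p = 0.083).

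Ptger2 rose 6.27-fold with 4T1 CM in STAT5fl/fl BMDMs (log2 fold change 2.65, SE 0.19, edgeR adjusted p = 3.18e-09) and 3.11-fold in STAT5cKO BMDMs (1.63, SE 0.15, 7.81e-08). With rmGM-CSF the changes were 0.13 (95% interval -0.33 to 0.59) and 0.30 (-0.05 to 0.64), neither called. STAT5cKO was 1.59-fold lower with 4T1 CM (log2 fold change -0.67, SE 0.15, edgeR adjusted p = 0.00522). This call was lost without 112 (-0.75), 113 (-0.58), 114 (-0.58, edgeR adjusted p = 0.0188) or 116 (-0.74, 0.0124). It was also lost when only the compared groups were fitted (-0.68, edgeR adjusted p = 0.0114). The test of a different 4T1 CM response between genotypes missed the threshold (-1.01 against DMEM, edgeR adjusted p = 0.0261; -1.18 against rmGM-CSF, 0.0110). Per transcript length Ptger4 exceeded Ptger2 by 15.4 to 52.1 times with rmGM-CSF, 5.66 to 9.55 times with DMEM and 2.35 to 3.16 times with 4T1 CM.

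**Figure D3:**
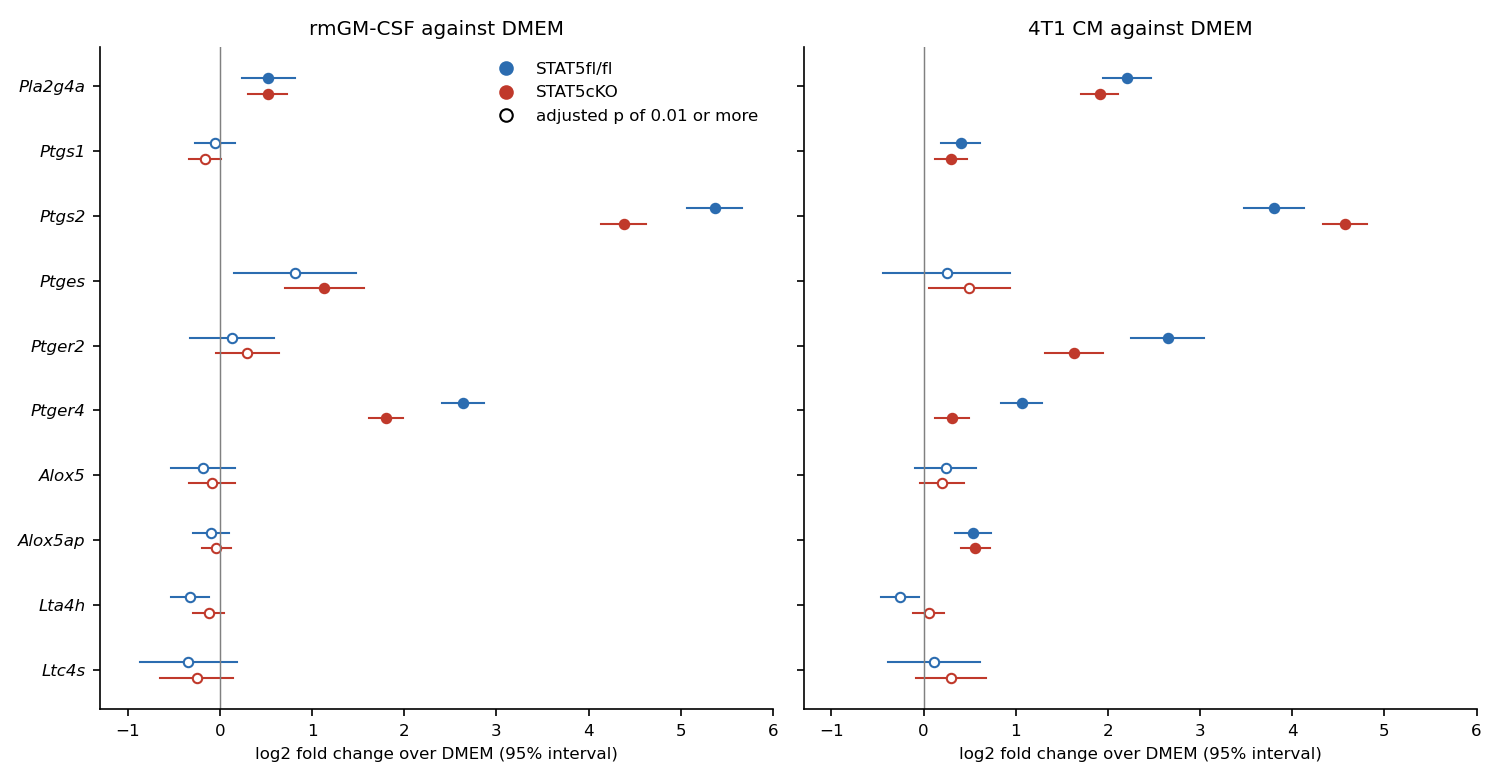
Log2 fold change over DMEM with its 95% interval for each of the 10 genes, with rmGM-CSF (left) and 4T1 CM (right), in STAT5fl/fl (blue) and STAT5cKO (red) BMDMs; filled points have an adjusted p under 0.01. Ptgs2 and Ptger4 lie far to the right with rmGM-CSF, and Ptgs2, Ptger2 and Pla2g4a with 4T1 CM, whereas Alox5, Lta4h and Ltc4s have no filled point.

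On the leukotriene side, Alox5 was higher in STAT5cKO BMDMs in all 3 media, and no change over DMEM passed the test. It lies at chr6:116410077-116461178 on the minus strand. With DMEM it had 9.14 and 8.72 CPM in STAT5fl/fl and 18.7, 17.9 and 19.9 CPM in STAT5cKO libraries. With rmGM-CSF the values were 7.16 and 8.52 against 18.6, 16.5 and 18.1 CPM, and with 4T1 CM 10.7 and 10.4 against 16.9, 22.8 and 25.2 CPM. The highest of the 6 STAT5fl/fl values, 10.7 CPM, lay below the lowest of the 9 STAT5cKO values, 16.5 CPM.

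Alox5 was 2.11-fold higher in STAT5cKO BMDMs with DMEM (log2 fold change 1.076, SE 0.14, edgeR adjusted p = 0.000248), 2.25-fold with rmGM-CSF (1.17, SE 0.15, 2.41e-05) and 2.05-fold with 4T1 CM (1.04, SE 0.14, 7.58e-05). The calls with rmGM-CSF and 4T1 CM held in every alternative, and that with DMEM was lost without 112 (1.11, adjusted p = 0.0119) or 113 (1.04, 0.0220). Differences between these genotype effects were 0.09 for rmGM-CSF against DMEM (95% interval -0.34 to 0.52) and -0.04 for 4T1 CM against DMEM (-0.45 to 0.37). Changes of Alox5 over DMEM were -0.18 and -0.09 with rmGM-CSF and 0.24 and 0.20 with 4T1 CM, in STAT5fl/fl and STAT5cKO respectively, and none was called.

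The stretch before the Alox5 start site, chr6:116461179-116461428 on the minus strand of GRCm38.p6 (RefSeq), is shown because Alox5 was the only member called between genotypes in all 3 media. It too held none of the 5 motifs.

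Alox5: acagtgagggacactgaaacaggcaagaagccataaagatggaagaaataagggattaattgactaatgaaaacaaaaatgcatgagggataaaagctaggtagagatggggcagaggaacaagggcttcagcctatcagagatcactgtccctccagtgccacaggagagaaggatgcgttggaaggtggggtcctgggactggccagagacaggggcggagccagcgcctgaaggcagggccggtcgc

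Alox5ap, Lta4h and Ltc4s gave no call between genotypes. Alox5ap (chr5:149264767-149288153, plus strand) had 134 to 152 CPM in all 10 libraries with DMEM or rmGM-CSF and 199 to 251 CPM in the 5 with 4T1 CM. It rose 1.46-fold with 4T1 CM in STAT5fl/fl (log2 fold change 0.54, SE 0.09, edgeR adjusted p = 0.000110, and 0.0141 without 112) and 1.48-fold in STAT5cKO BMDMs (0.56, SE 0.08, 7.33e-06). Its genotype differences were 0.03 in DMEM, 0.09 under rmGM-CSF and 0.06 under 4T1 CM on the log2 scale, and the widest of their 95% intervals ran from -0.09 to 0.27.

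Lta4h (chr10:93453411-93484875, plus strand) ran from 48.2 to 68.0 CPM over all 15 libraries, with no call in any comparison. Its nearest to one was a change of -0.32 with rmGM-CSF in STAT5fl/fl BMDMs (95% interval -0.53 to -0.11, edgeR adjusted p = 0.0144). Ltc4s (chr11:50236461-50238616, minus strand) ran from 2.68 to 7.56 CPM, which is 50 to 167 counts. STAT5cKO libraries had 6.42 to 7.56 CPM of it with 4T1 CM against 4.33 and 5.004 CPM in STAT5fl/fl libraries, a log2 difference of 0.60 that did not pass the test (95% interval 0.16 to 1.04, edgeR adjusted p = 0.0661).

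Counted together, 1 of the 10 members was called between genotypes with DMEM, against 2.35% of all tested genes, and it was higher in STAT5cKO, as were 0.923% of tested genes. With rmGM-CSF 5 were called, 3 higher and 2 lower in STAT5cKO, against 9.93% of tested genes (3.78% higher and 6.16% lower). With 4T1 CM 5 were called, again 3 higher and 2 lower, against 7.44% (4.01% higher and 3.43% lower). Their median log2 difference was 0.29, 0.28 and 0.17 in the 3 media, where that of all tested genes was 0.001, 0 and 0.01. Over DMEM in STAT5fl/fl BMDMs, 3 members rose with rmGM-CSF (28.7% of tested genes were called, 16.0% higher and 12.7% lower) and 6 with 4T1 CM (37.2%, 19.1% higher), and no member was called lower. In STAT5cKO BMDMs 4 rose with rmGM-CSF (23.5%, 13.4% higher) and 6 with 4T1 CM (37.2%, 19.0% higher), and no member was called lower. Comparisons that share a group's libraries are not independent of each other. Between 4T1 CM and rmGM-CSF 6 members were called in STAT5fl/fl (30.9%) and 5 in STAT5cKO (34.1%), with Ptger4 lower in both. A genotype difference in response was called for 2 members with rmGM-CSF over DMEM, both lower (3.16% of tested genes, 0.884% higher and 2.28% lower). It was called for 1 with 4T1 CM over DMEM, lower (1.31%, 0.546% lower), and 1 with 4T1 CM over rmGM-CSF, higher (1.43%).

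**Figure D4:**
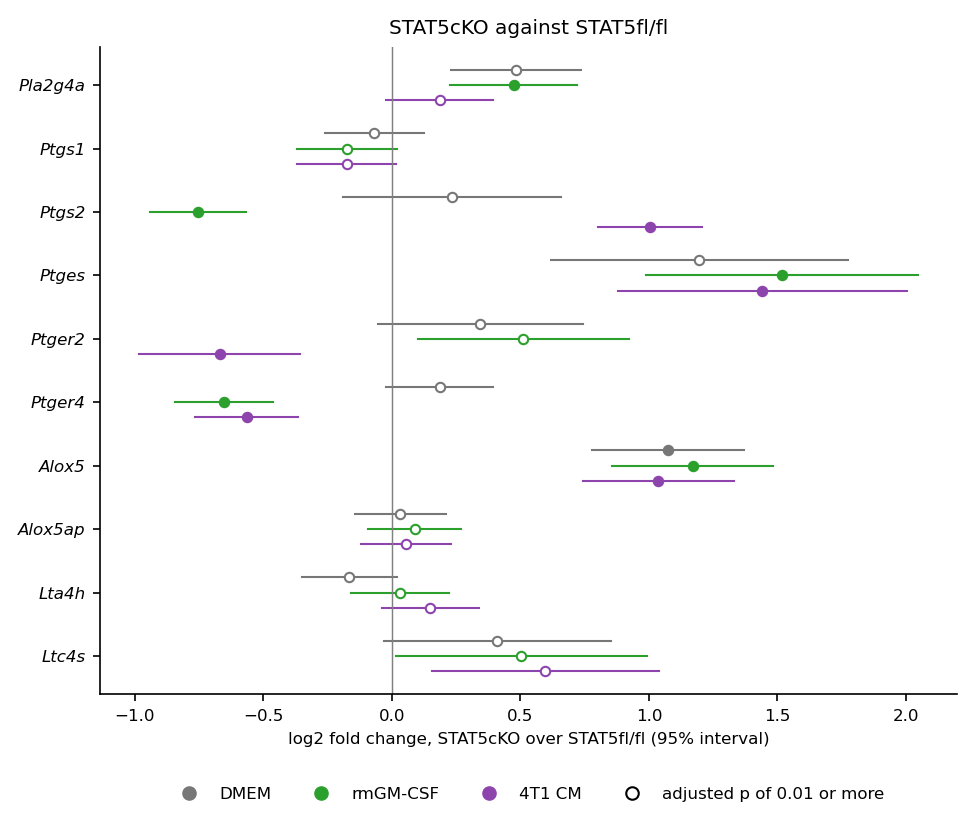
Log2 fold change of STAT5cKO over STAT5fl/fl BMDMs with its 95% interval for each of the 10 genes, in DMEM (grey), rmGM-CSF (green) and 4T1 CM (purple); filled points have an adjusted p under 0.01. Alox5 lies near 1 in every medium, Ptgs2 lies at -0.75 with rmGM-CSF and 1.004 with 4T1 CM, and Ptger4 lies below 0 with both stimuli only.

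Other genes of the pathway were read from a list of 55 symbols (further phospholipases, synthases, transport and breakdown genes, receptors and lipoxygenases). Of these, 54 were matched to 1 gene of the table and 27 passed the filter. Between genotypes 3 were called in DMEM, 4 under rmGM-CSF and 3 under 4T1 CM, against 2.35%, 9.93% and 7.44% of all tested genes, and all but Abcc1 were lower in STAT5cKO. The median log2 difference of the 27 was -0.04, -0.06 and 0.03 in the 3 media.

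Pla2g15, a lysosomal phospholipase gene, had 294 ± 22.2 CPM (SD, n = 2) in STAT5fl/fl and 134 ± 6.06 CPM (SD, n = 3) in STAT5cKO BMDMs with rmGM-CSF. This was 2.19-fold lower (log2 fold change -1.13, edgeR adjusted p = 2.38e-08), and with 4T1 CM it was 1.75-fold lower (-0.81, 4.61e-06). Its response to rmGM-CSF differed between genotypes by -0.80 (edgeR adjusted p = 0.000304). Mgll, which encodes monoacylglycerol lipase, was lower in every medium, by -1.01 in DMEM, -0.61 under rmGM-CSF and -0.66 under 4T1 CM (edgeR adjusted p = 0.000130, 0.00270 and 0.00237). The last pair of calls was not stable. The rmGM-CSF call was lost without 112 (-0.43), 114 (-0.60, edgeR adjusted p = 0.0111) or 115 (-0.55, 0.0151). The 4T1 CM call was lost without 112 (-0.54) or 115 (-0.58, edgeR adjusted p = 0.0132), and when only the compared groups were fitted (-0.67, 0.0143). Tbxas1, the thromboxane synthase gene, was 1.46-fold lower with rmGM-CSF (edgeR adjusted p = 3.48e-05). With 4T1 CM it differed by -0.31 (edgeR adjusted p = 0.00781). That call was lost without 112 (-0.39), 113 (-0.22), 114 (-0.25, edgeR adjusted p = 0.0489) or 116 (-0.29, 0.0345). It was also lost when only the compared groups were fitted (-0.31, edgeR adjusted p = 0.0943).

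With DMEM, Hpgd, which encodes the dehydrogenase that inactivates prostaglandins, was 1.58-fold lower in STAT5cKO BMDMs (-0.66, edgeR adjusted p = 0.000868). The call was lost without 112 (0.0116) or 113 (0.0377). It was also lower with rmGM-CSF (-0.49, edgeR adjusted p = 0.00382), a call lost without 112 (0.0141), 113 (0.101), 115 (0.0181) or 116 (0.0127). Abcc1, a transporter of leukotriene C4, was 1.27-fold higher in STAT5cKO BMDMs with DMEM (edgeR adjusted p = 0.00279). Its call was lost without 112 (log2 fold change 0.36), 113 (0.33), 114 (0.33, edgeR adjusted p = 0.0157) or 115 (0.33, 0.0126).

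Over DMEM, 4 of the 27 rose and 4 fell with rmGM-CSF in STAT5fl/fl BMDMs (28.7% of all tested genes were called), and 3 rose and 4 fell in STAT5cKO (23.5%), shares near those of all genes. 4T1 CM gave 6 higher and 5 lower in STAT5fl/fl, and 4 higher and 3 lower in STAT5cKO, where 37.2% of all tested genes were called in each. Abcc1 rose in all 4 of these comparisons, by 0.64 and 0.50 on the log2 scale with rmGM-CSF and 0.76 and 0.52 with 4T1 CM. Ptgir, the prostacyclin receptor gene, rose by 1.49 and 1.23 with rmGM-CSF (edgeR adjusted p = 0.000149 and 6.76e-05), the former lost without 112 (0.0139) or 113 (0.0149). Under 4T1 CM it rose by 1.03 and 0.89 (edgeR adjusted p = 0.00285 and 0.000778). The STAT5fl/fl call was lost without 112 (1.13) or 113 (0.94). The STAT5cKO call was lost without 115 (0.79, edgeR adjusted p = 0.0181) and when only the compared groups were fitted (0.89, 0.0108). Hpgds, the hematopoietic prostaglandin D2 synthase gene, fell with 4T1 CM from 466 ± 30.2 to 231 ± 14.4 CPM in STAT5fl/fl (SD, n = 2) and from 378 ± 18.4 to 242 ± 8.38 CPM in STAT5cKO BMDMs (SD, n = 3). Hpgd fell with 4T1 CM by 1.05 and 0.82 on the log2 scale (edgeR adjusted p = 6.97e-07 and 1.52e-06).

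Ltb4r1, a leukotriene B4 receptor gene, was near the limit of detection without 4T1 CM, with 1 to 3 counts in STAT5fl/fl libraries and 1 to 7 in STAT5cKO libraries in the other media. With 4T1 CM it had 26 and 52 counts in STAT5fl/fl libraries and 36 to 73 in STAT5cKO libraries. The change over DMEM was called in both (edgeR adjusted p = 4.38e-05 and 6.43e-06). Only its 4T1 CM libraries exceeded 1 CPM, so Ltb4r1 was tested because of them. These calls are included in the tallies of higher genes with 4T1 CM given above, and they add no support to those tallies. No fold is given because the DMEM counts are at or near 3, taken as the lowest readable count.

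**Figure D5:**
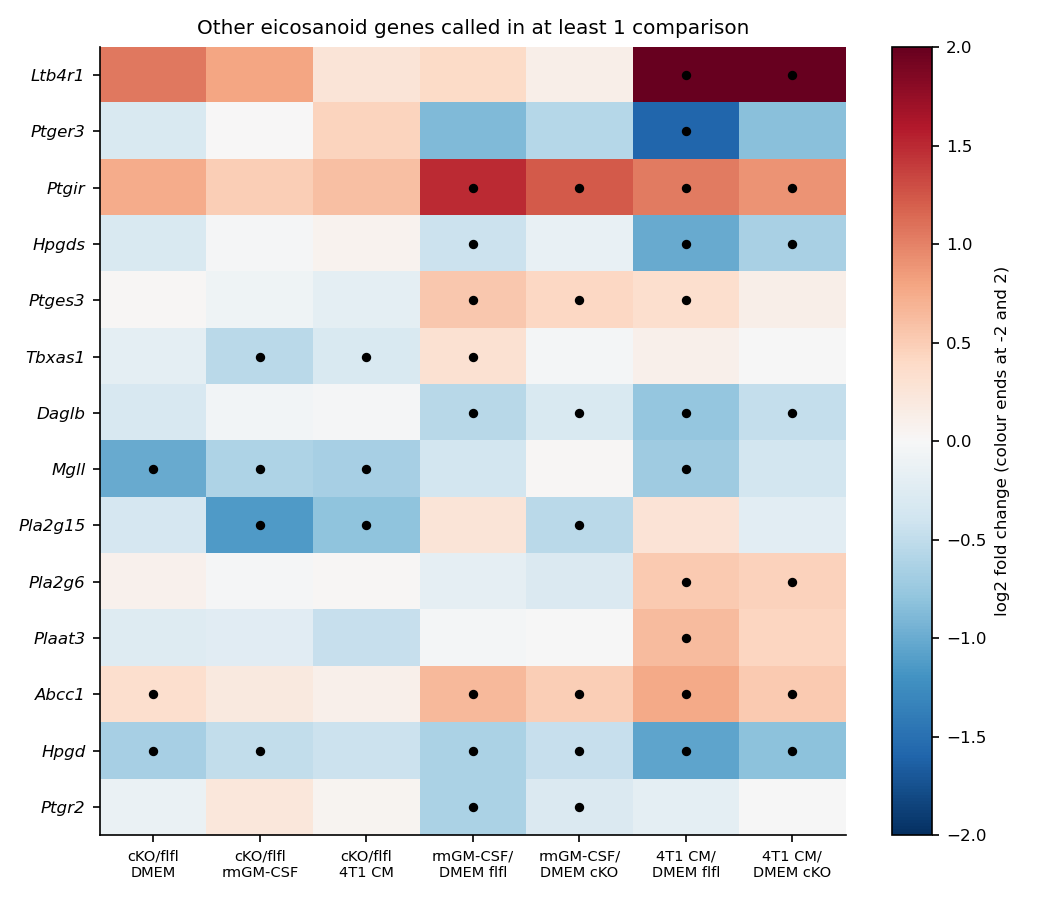
Log2 fold change (colour, red higher and blue lower, ends at -2 and 2) of the other eicosanoid genes called in at least 1 of the 7 comparisons shown; black dots mark an adjusted p under 0.01. In the genotype columns the dots lie on blue cells except for Abcc1 with DMEM, and the Ltb4r1 dots are in the 4T1 CM columns.

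As a description over the 15 libraries, which share 6 groups, the tested genes with the log2 CPM pattern most like that of Ptgs2 were Bcl3 (Pearson r 0.993), Rhbdf2 (0.991), Junb (0.989), Mex3c (0.987) and Skil (0.987). Those most like Alox5 were Gpx1 (0.952), Atp2a3 (0.950), Cx3cr1 (0.950), Selenow (0.941) and Cd72 (0.938). Among the members, Ptger2 ran closest to Pla2g4a (0.940) and Alox5ap (0.904).

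Mast cells and eosinophils are known sources of leukotrienes, so their markers are given beside Alox5 and Ltc4s. Of 8 mast cell markers only Kit passed the filter. Cpa3, Mcpt4, Ms4a2, Tpsb2, Tpsab1 and Cma1 had 0 counts in all 15 libraries, and Fcer1a at most 1. Kit itself was lower in STAT5cKO BMDMs, at 17.97 against 6.43 CPM with DMEM, 21.5 against 5.30 with rmGM-CSF and 7.21 against 2.29 with 4T1 CM, and was called in each. The eosinophil genes Prg2 and Epx had 0 counts in every library, while Siglecf and Ccr3 passed the filter, with summed eosinophil marker levels of 5.22 to 21.1 CPM in STAT5fl/fl and 3.58 to 12.1 CPM in STAT5cKO libraries. Of 8 neutrophil markers only S100a8 passed the filter, with 3 to 50 counts, and the summed level of the 8 was 0.311 to 1.70 CPM in STAT5fl/fl and 0.276 to 2.502 CPM in STAT5cKO libraries. S100a8 was called in 1 comparison, higher with 4T1 CM over DMEM in STAT5cKO (edgeR adjusted p = 0.00274), and Ly6g had 0 counts throughout. The epithelial genes Epcam, Krt8, Krt18 and Krt14 had at most 4 counts in any library, those with 4T1 CM included, and Cdh1 was the only one of 5 epithelial markers to pass the filter. Cdh1 had 0 counts in both STAT5fl/fl libraries with DMEM, 21 in each with rmGM-CSF, and 63 and 84 with 4T1 CM, against at most 1, at most 1 and 24 to 47 in STAT5cKO libraries. It was called higher with both stimuli in STAT5fl/fl, with 4T1 CM in STAT5cKO, and lower in STAT5cKO with rmGM-CSF (edgeR adjusted p = 8.39e-05). No DMEM library exceeded 1 CPM of S100a8 or Cdh1, so both passed the filter through stimulated libraries. Their calls over DMEM therefore add nothing to these values. The part of these markers in the members' results was not tested.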

How the data were processed

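Paired-end stranded RNA-seq reads were trimmed with Trimmomatic 0.33 and aligned to GRCm38 with HISAT2 2.1.0 by the authors, who counted them per gene of the Ensembl annotation with featureCounts 1.6.2. Per the file headers, counting used strand and a minimum mapping quality of 10. The authors deposited raw counts per gene and library, which were used as given, and the deposited gene length (another column, in bases) served for RPKM.

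Counts were fitted in R 4.3.3 with edgeR 4.0.16 (quasi-likelihood F test, 1 model over 6 groups, RLE normalization, biological coefficient of variation 0.0787). Genes with CPM over 1 in 2 or more libraries were tested, and Benjamini-Hochberg adjusted p under 0.01 within a comparison was called. P-values measure the spread between libraries. Intervals and SEs come from the same model, and no fold is given from counts of 3 or fewer. The step was tested on simulated data. Alternatives were TMM normalization, other low-count filters, fits of the compared groups only, DESeq2 1.42.0, limma 3.58.1, a replicate block, leaving out each library number, and a threshold of 0.05.

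The members and the lists were chosen with earlier results of these data known. Named were all members, Stat5a and Stat5b, up to 3 other pathway genes per direction and comparison by adjusted p (with Ltb4r1), and the 5 genes most correlated with Ptgs2 or Alox5. Symbols and positions come from the annotation of GRCm38; 55144 of 55385 identifiers had a symbol. Promoters come from RefSeq, in which 9 of 10 members matched.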

Additional observations from a re-analysis of the deposited data

Results flagged for a closer look

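In 5 tests the response to a medium differed between STAT5fl/fl and STAT5cKO BMDMs by the test of the difference itself. Ptgs2 gave 1.76 on the log2 scale for 4T1 CM against rmGM-CSF (edgeR adjusted p = 4.03e-07) and -0.99 for rmGM-CSF against DMEM (0.00982), which held in 13 and 4 of 13 alternatives. Ptger4 gave -0.84 for rmGM-CSF against DMEM (edgeR adjusted p = 0.000744) and -0.75 for 4T1 CM against DMEM (0.00457), which held in 12 and 8 of 13. Pla2g15 gave -0.80 for rmGM-CSF against DMEM (edgeR adjusted p = 0.000304) and kept its call in every alternative, with adjusted p of at most 0.00729. Groups of 2 or 3 libraries are too small for a test of single outlying libraries.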

How the results depend on the processing

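Of 45 member results called, 28 kept their call in every alternative run, and of 57 for the other pathway genes also 28. The 57 include those of Ltb4r1, which was tested because of its 4T1 CM libraries. TMM normalization moved the median of all genes by at most 0.0078 log2. Members called between genotypes with DMEM numbered 1, or 3 with no low-count filter, 2 with DESeq2, 3 at a threshold of 0.05 and 0 to 1 without 1 replicate. With rmGM-CSF they were 5, or 3 to 4 without 1 replicate. With 4T1 CM they were 5, 3 when only the compared groups were fitted, and 2 to 5 without 1 replicate. For rmGM-CSF over DMEM in STAT5fl/fl, 3 became 5 at 0.05, 4 with DESeq2, no filter, the compared groups only or the block (Lta4h added), and 2 with the random effect or without 112 or 113 (Pla2g4a lost), and 4 became 2 to 4 without 1 replicate in STAT5cKO. The 2 members whose rmGM-CSF response differed by genotype became 1 with the edgeR default filter, the compared groups only, DESeq2 or the number as a random effect, and 0 to 1 without 1 replicate. For 4T1 CM against DMEM, 1 became 2 with no filter, DESeq2 or 0.05, 0 with the compared groups only, and 0 to 1 without 1 replicate. For 4T1 CM against rmGM-CSF, 1 became 2 with no filter, DESeq2, the random effect or 0.05. Members called for 4T1 CM over DMEM in STAT5cKO went from 6 to 5 with the compared groups only, and to 4 without 114, 115 or 116. In STAT5fl/fl they went from 6 to 5 with the compared groups only, and to 7 at 0.05. Leaving out a STAT5fl/fl replicate leaves 1 library, assumed to vary like the others. The cause of these changes was not tested.

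The labels do not say what a shared library number marks. Same-numbered libraries deviated together with r from 0.0926 to 0.213 in STAT5fl/fl and 0.0548 to 0.214 in STAT5cKO, not over 0.1 in every pair, and were treated as sharing only a number. Of 9 STAT5cKO libraries, 7 correlated best with their own number. Each of 6 STAT5fl/fl libraries did too. With 2 STAT5fl/fl libraries per group the deviations mirror each other exactly, so these are not 6 separate observations. With a replicate block, members called for the differing 4T1 CM response went from 1 to 2 against DMEM and from 1 to 2 against rmGM-CSF, Ptger2 being added each time (adjusted p 0.00505 and 0.00139). The block also added Lta4h for rmGM-CSF against DMEM in STAT5fl/fl (0.00600), and Ptges (0.00618) and Ltc4s (0.00840) for 4T1 CM against rmGM-CSF in STAT5cKO. No fixed block could be fitted between genotypes, which share no number. With the number as a random effect in limma, members called between genotypes were 1 with DMEM, 4 with rmGM-CSF (Pla2g4a lost, 0.0313) and 5 with 4T1 CM.

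Without 1 replicate, log2 genotype differences that were not called changed sign for Alox5ap (DMEM, -0.0113 to 0.082; 4T1 CM, -0.0602 to 0.116), Ptgs1 (DMEM, -0.151 to 0.0224; 4T1 CM, -0.352 to 0.0232) and Lta4h (rmGM-CSF, -0.0376 to 0.104). Another 47 member results were called in no fit, and 19 of them changed sign in an alternative.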
